A study of Mus musculus with 8 samples.

Results

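The genes of motile cilia were described in RNA sequencing of mouse spinal cord. The set was chosen by name as 43 genes for axonemal dyneins, radial spokes, the central pair, cilium assembly and the Foxj1 and Rfx transcription factors. The choice was made with earlier results of these data known, so its shares beside those of all genes are descriptive only. The table of 41325 genes held 41 of the 43 names, and Dnai1 and Dnai2 were the names without a row. All cord was from postnatal day 14, of wild-type C57BL/6J mice (WT) or of a triple knockout (TKO) with the genotype Mir34a-/-; Mir34bc-/-; Mir449-/-, for which the labels give no background strain. Lumbar and thoracic cord were sequenced from each genotype, with 2 libraries for each of the 4 groups and 8 in all. The series title places the knockout in work on miR-34 and spinal muscular atrophy, a motor neuron disease. No label ties a library to a mouse: whether the 2 libraries of a group are separate mice, and whether 1 mouse gave both segments, is not stated. The p-values therefore rest on the spread between libraries, part of which may be technical.

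Motile cilia in the cord stand on the ependymal cells that line the central canal, where they beat and move cerebrospinal fluid. Their core, the axoneme, is a ring of microtubule doublets around a central pair of microtubules. Outer and inner dynein arms slide the doublets past each other, and the central pair, the radial spokes and the dynein regulatory complex control which arms are active. Foxj1 and the RFX factors switch on the genes for these parts. In multiciliated cells of other mouse tissues, the miR-34/449 microRNAs are known to act earlier, when many basal bodies are made and docked at the cell surface, with Ccp110 as a known target. Whole cord was sequenced, so fewer ependymal cells and less RNA per cell cannot be told apart, and neurons and glia also express some of these genes.

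The deleted microRNAs share bases 2 to 8, the seed that pairs with target messages. The mature sequences below are from RefSeq on GRCm38.p6, and the capitals mark the seed. They are shown because every search for a target site in the cilia genes rests on these bases.
mmu-miR-34a-5p: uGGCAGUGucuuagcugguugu
mmu-miR-34b-5p: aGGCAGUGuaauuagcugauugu
mmu-miR-449a-5p: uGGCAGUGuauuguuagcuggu
mmu-miR-449c-5p: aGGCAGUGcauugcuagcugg
All 4 carry the same seed, so a single 7-base site, CACTGCC, was searched on the sense strand of the longest annotated 3' UTR of each gene. miR-34c-5p and miR-449b are further members of the family.

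Few cilia genes held that site. It was found in 2 of the 41 genes (4.88%), against 2562 of the 15050 tested genes with a 3' UTR (17.0%). The UTRs of the cilia genes were also shorter, with a median of 283 bases against 1163 over the tested genes, and the share was not adjusted for length. The matches lay in Rfx3, an RFX factor, and in Ccdc114, a subunit of the complex that docks outer dynein arms. They are shown with the site in capitals, 5′ to 3′ on the gene's strand, and with an eighth capital where the base after the site is an A.
Rfx3, minus strand, chr19:27764022-27764029: tcccaaatattCACTGCCAtctaagtaagt
Rfx3, minus strand, chr19:27763431-27763437: agatacgtccaCACTGCCctcgctgagca
Ccdc114, plus strand, chr7:45930811-45930817: gcatgtgccacCACTGCCtgggcggctgc
The Rfx3 sites lie in an exon of 2 of its 4 basic transcripts. The Ccdc114 site lies in an exon of 1 of 4 basic transcripts and in an intron of the other 3. A match describes letters in an annotated UTR and shows no binding.

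The promoters of the cilia genes were searched for the motif of each class of factor, in the window from 250 bases before to 50 bases after the annotated start. The X-box of the RFX factors was searched as GTTNCC, then 5 or 4 bases of any kind, then AAC, on both strands. It was found in 8 of the 36 cilia genes with a promoter sequence (22.2%) and in 393 of 12590 tested genes (3.12%). The forkhead motif TGTTTAC, also on both strands, was found in 3 of the 36 (8.33%) and in 3.19% of the tested genes. No cilia gene held both motifs. Examples are printed 5′ to 3′ on the gene's strand, from RefSeq on GRCm38.p6, with the motif in capitals and its position. The X-boxes are those of an outer arm dynein, a dynein tether, a doublet protein and a central pair protein, and 2 forkhead matches follow. The letters that the search pattern fixes are shared by design. For Cfap44 and Hydin the motif lies on the strand opposite the gene, so their capitals show its complement in reverse.
Dnah9 X-box, minus strand, chr11:66168621-66168633: ttccaccaGTTTCCCAGCAACaacgacgc
Cfap44 X-box, plus strand, chr16:44394772-44394785: ggagggacGTTGCTATGGCAACcgcagtaa
Enkur X-box, minus strand, chr2:21205364-21205377: tagcaactGTTTCCTTAGCAACcacgtggt
Hydin X-box, plus strand, chr8:110266956-110266969: actctgcgGTTGCTGTGGCAACagatggta
Ak7 forkhead, plus strand, chr12:105705851-105705857: agtagagaaatTGTTTACccaagcagagc
Mlf1 forkhead, plus strand, chr3:67373981-67373987: cgccgccagtgTGTTTACagaggttgcca
The other genes with an X-box were Ccdc151, Spag16, Tekt2 and Tekt4, and the other forkhead match was in Cfap43. Both shares describe letters in a fixed window, and no match there says only that these letters were not in it.

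The libraries held 16195212 to 20907819 gene reads, of which the 41 cilia genes took 3187 to 4710, or 169 to 245 of every 1000000. Levels below are gene reads per 1000000 (CPM) on the TMM-adjusted library size unless RPKM is named. Mitochondrially encoded transcripts took 4.99% to 16.8% of reads. Introns took 6.23% and 6.69% of reads in the TKO replicate 2 libraries and 4.39% to 5.22% in the other 6, while their share of the cilia genes' own reads was 19.4% to 24.9%. Of the 41 genes, 11 overlap a gene on the opposite strand with a mean of over 5 reads, such as Dnali1 with Gnl2 and Spag17 with Wdr3; the reads of each pair may not be fully told apart, as the strand setting is unknown. All 41 passed the filter on low counts. The quasi-likelihood test of edgeR was run on all 17067 genes that passed it, with Benjamini-Hochberg adjustment and a threshold of 0.05.

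The motile cilia program was present at a low level in every library. In RPKM, which divides exon reads by exon length, the mean over 8 libraries ran from 0.0252 for Dnah3 to 3.995 for Foxj1, with a median of 0.662, and 13 of the 41 genes reached 1. Foxj1, the forkhead factor that is the master switch of motile cilia, was above Rfx3 in RPKM and Rfx3 above Rfx2 in 8 of 8 libraries. Among the outer arm heavy chains, Dnah9 (mean RPKM 0.338) was above Dnah11 (0.218) in 8 libraries, and Dnah11 above Dnah5 (0.179) in 7 of 8. Of the inner arm heavy chains Dnah7b had the highest mean RPKM, 0.529, and was above Dnah1 (0.346) in all 8 libraries. Only 69.3% of Dnah7b reads were uniquely placed, as Dnah7a is a near copy, so its rank is uncertain. Dnah6 (0.327) could not be ordered against Dnah1 or against Dnah2 (0.289), since either gene of each pair was higher in 4 of 8 libraries.

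Spoke, central pair and tektin genes spanned a wide range per length. Mean RPKM was 2.40 for Rsph9 and 2.16 for Rsph1, both of the radial spoke head, and Rsph9 was higher in only 5 of 8 libraries. Rsph4a, of the same spoke head, was at 1.23 and below Rsph1 in all 8. In the central pair, Spag6l (0.752) was above Cfap54 (0.476) in 7 libraries, and Spef2 (0.346) was above Hydin (0.171) in all 8. The tektins, filament proteins of the doublet wall, were at 1.70 for Tekt2, 1.46 for Tekt4 and 0.854 for Tekt1. Tekt2 was above Tekt4, and Tekt4 above Tekt1, in only 5 of 8 libraries.

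**Figure D1:**
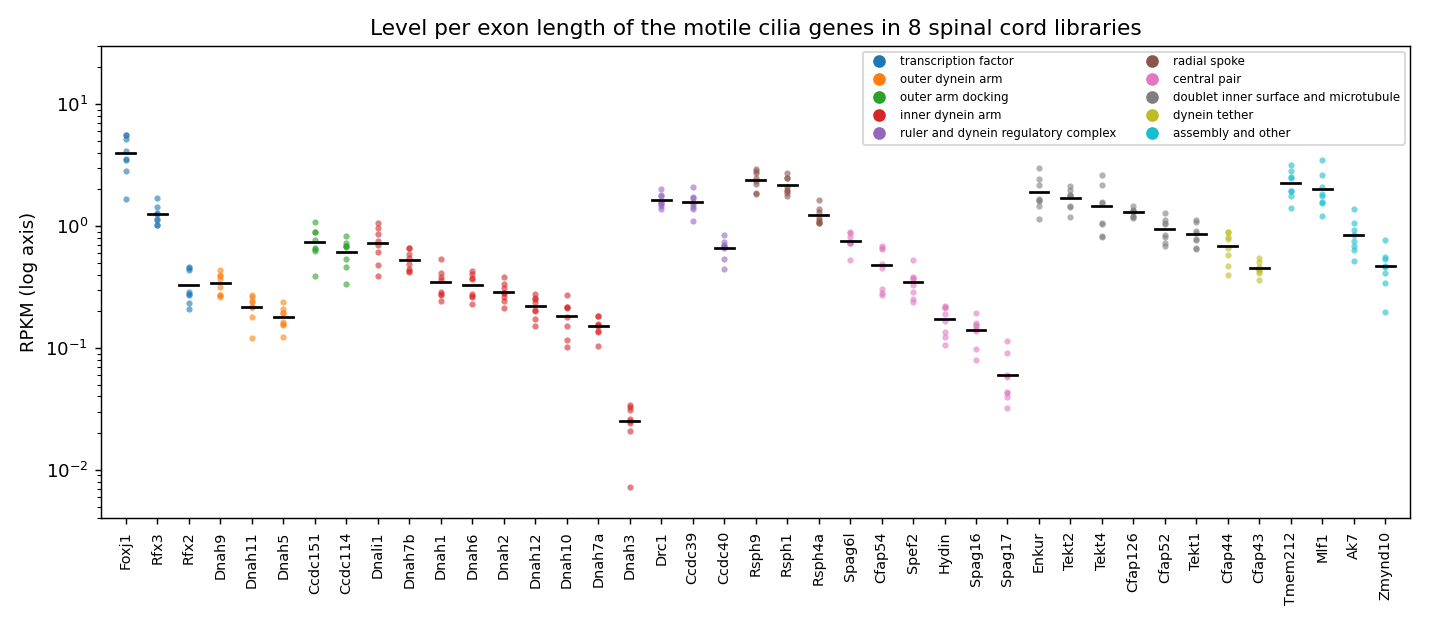
RPKM (exon reads scaled by exon length and library size, log axis) of the 41 motile cilia genes, grouped and coloured by role and ordered within a role by mean. Each point is a library and each bar the mean of the 8 libraries, and Foxj1 has the highest mean (3.995) and Dnah3 the lowest (0.0252).

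Other markers bear on the ependymal label. All 16 genes listed for the surface and cytoplasm of ependymal cells had reads, among them Cd24a (47.4 to 89.9 CPM) and Rarres2 (4.59 to 12.5 CPM), although most of this list is also expressed by other cells of the cord. Of the 10 genes listed for the choroid plexus, which also carries motile cilia, Ttr, its abundant secreted transthyretin, had 17 reads over all 8 libraries and Otx2, its transcription factor, had 3. Folr1, Kcne2, Clic6 and Kcnj13 were low, at 25 to 95 reads, while Aqp1 (160), Slc4a5 (219), Kl (495) and Prlr (1512, or 8.37 to 14.4 CPM) had more, and the last was in the range of the cilia genes. Of the regulators of multiciliated cell birth, Mcidas had 15 reads over 8 libraries, Ccno 60 and Gmnc 215.

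The first comparison asked how the cilia genes differ between TKO and WT over both segments. In sum they stood lowest in lumbar WT. The 41 genes together held 244 and 230 CPM in lumbar TKO and 184 and 169 in lumbar WT. In the thoracic cord they held 218 and 223 CPM in TKO and 207 and 216 in WT. Lumbar genotypes were thus well apart in this sum. The thoracic ones were only narrowly apart, with 218 CPM in the lower TKO library and 216 in the higher WT library. Without the TMM adjustment of library size the thoracic genotypes overlapped, at 208 and 228 CPM in TKO against 194 and 226 in WT. The lumbar ones stayed apart without it, at 238 and 245 in TKO against 185 and 169 in WT. Counted gene by gene, lumbar WT had the lowest of the 4 group means for 25 of the 41 genes and the highest for 0, while lumbar TKO had the highest for 19. The same count was not made over all tested genes, so it cannot tell whether this order is particular to the cilia genes.

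No cilia gene passed the adjusted threshold. The mean genotype difference called 0 of 41, against 61 of 17067 genes (0.357%). The log2 difference was above 0 for 32 of the 41 with a median of 0.22, against 50.1% of all tested genes and a median of 0.00. An unadjusted p under 0.05 was reached by 8 genes higher in TKO, or 19.5% of 41, against 10.3% of all genes, and 0 lower, against 8.79%. All 4 TKO libraries were above all 4 WT libraries for 3 genes (7.32%), which were Cfap54, Dnah10 and Ccdc114, against 5.32% of all genes. For Ccdc114 this held in gene reads but not in RPKM, which leaves introns out. All 4 TKO libraries were below all 4 WT libraries for 0 of 41, against 5.37% of all genes. DESeq2, run beside edgeR, called 1 cilia gene, Cfap54, among 672 genes in all. The median 95% interval of a cilia gene reached 0.46 to either side on the log2 scale.

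**Figure D2:**
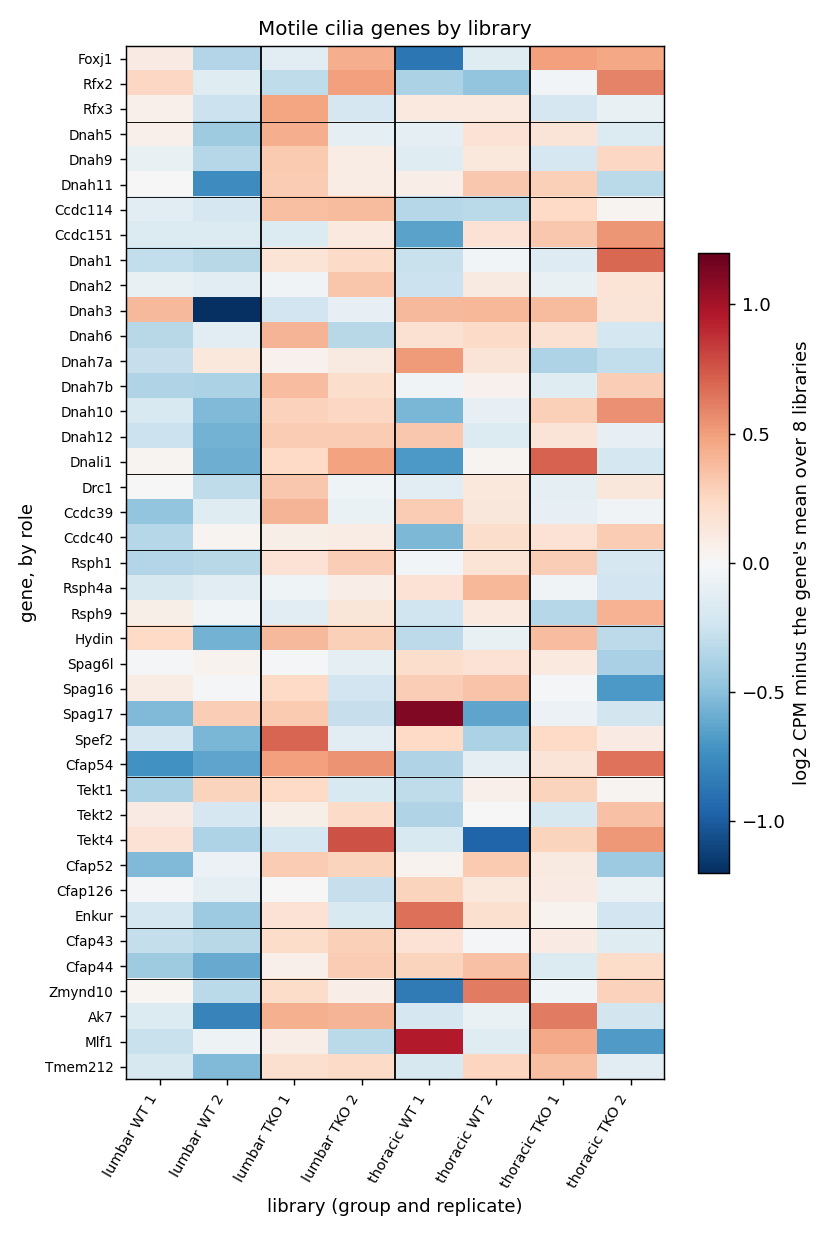
Each cell is the log2 CPM of a gene in a library minus the gene's mean over the 8 libraries (colour scale from −1.2 to 1.2, values beyond it take the end colour), with genes in rows ordered by role and libraries in columns by group. The lumbar WT columns are mostly blue, with 13 and 5 of 41 genes above their own mean, against 31 and 27 in lumbar TKO, 18 and 27 in thoracic WT and 25 and 20 in thoracic TKO.

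The segments were then read apart, and no cilia gene passed in either. In the lumbar cord 37 of 41 genes were above 0 with a median log2 difference of 0.34, against 49.8% of all genes and a median of −0.00. There 8 cilia genes were higher at an unadjusted p under 0.05 (19.5%; 2.98% of all genes) and 0 were lower (2.71% of all genes). Both lumbar TKO libraries were above both lumbar WT libraries for 23 genes (56.1%), against 17.4% of all genes, and below for 0, against 17.1%. In the thoracic cord 22 of 41 were above 0 with a median of 0.04, against 49.2% of all genes and a median of −0.01. Thoracic TKO was above WT without overlap for 7 genes (17.1%; 26.8% of all genes) and below for 11 (26.8%; 27.4% of all genes). At an unadjusted p under 0.05, 5 cilia genes were higher in thoracic TKO (12.2%; 11.7% of all genes) and 1 was lower (2.44%; 8.23% of all genes). Called genes numbered 0 of 41 in both segments, against 0.041% of all genes in the lumbar and 0.0352% in the thoracic cord, and DESeq2 called 1 (Cfap54) and 0. The thoracic median turned to −0.08 without thoracic TKO replicate 1, −0.01 without thoracic TKO replicate 2 and −0.04 without thoracic WT replicate 1, and the lumbar median was 0.53 without lumbar WT replicate 1 and 0.51 without lumbar TKO replicate 2. The lumbar and thoracic differences use separate libraries, while the mean is made of both. Cilia genes also shifted together between libraries of 1 group. Replicate 1 minus 2 in log2 CPM was above 0 for 13 of 41 in thoracic WT (median −0.20) and 28 in lumbar WT (0.11). It was above 0 for 23 in thoracic TKO (0.16) and 22 in lumbar TKO (0.02), against 48.8% to 49.9% of all genes. Counts of cilia genes here and in the other contrasts are therefore not counts of independent observations.

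**Figure D3:**
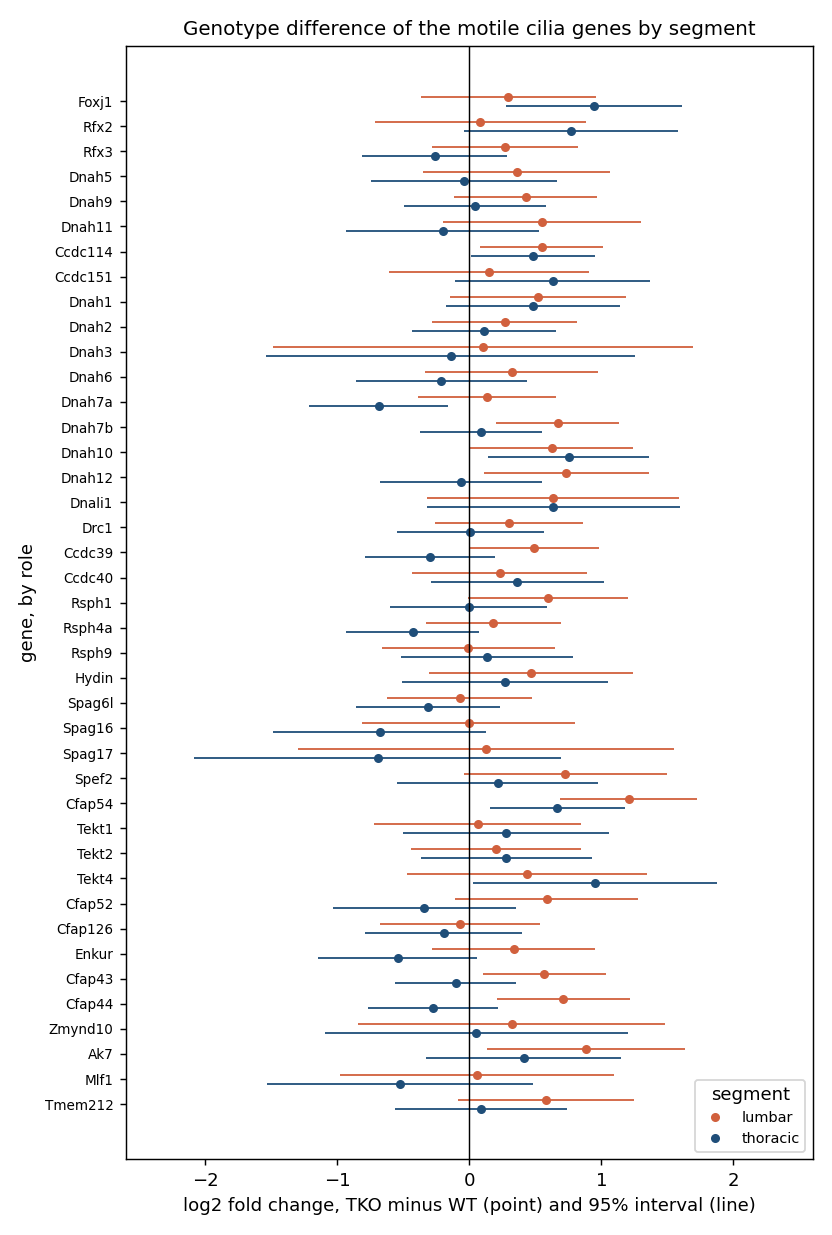
Log2 fold change of TKO against WT for the 41 genes in the lumbar (orange) and thoracic (blue) cord, with points for the estimate and lines for its 95% interval, in rows ordered by role. In the lumbar cord 37 estimates lie right of 0 and in the thoracic cord 22, and most intervals cross 0.

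Among the transcription factors of the set, Foxj1 and Rfx2 had a similar pattern and Rfx3 a different one. Foxj1 (chromosome 11, 116330704 to 116335399, mm10) was at 11 and 16.2 CPM in lumbar TKO, 12.8 and 9.36 in lumbar WT, 16.9 and 16.5 in thoracic TKO, then 6.53 and 10.8 in thoracic WT. The lumbar genotypes overlapped and the thoracic ones did not, and the log2 fold change was 0.62 (SE 0.208, adjusted p = 0.19) in the mean of both segments. In the thoracic cord alone it was 0.95 (SE 0.295, adjusted p = 0.205), and in the lumbar cord 0.30. Rfx3 (chromosome 19, 27761721 to 28011166), which carries the pair of seed matches, was at 21.1 and 13.1 CPM in lumbar TKO, 15.8 and 12.6 in lumbar WT, 13.1 and 14.2 in thoracic TKO, then 16.4 and 16.4 in thoracic WT. The lumbar genotypes overlapped and thoracic TKO was below WT, and the mean log2 difference was 0.00 (SE 0.173, adjusted p = 0.992). Rfx2 had 2.33 and 4.12 CPM in lumbar TKO against 3.46 and 2.61 in lumbar WT, and 2.83 and 4.43 in thoracic TKO against 2.19 and 2.06 in thoracic WT. The lumbar genotypes overlapped for Rfx2 and both thoracic TKO libraries were above both WT ones, as for Foxj1. Its mean log2 difference was 0.43 (SE 0.252, adjusted p = 0.362). The lumbar minus thoracic effect was −0.65 (SE 0.415) for Foxj1, −0.69 (SE 0.504) for Rfx2 and 0.53 (SE 0.345) for Rfx3. The edgeR adjusted p of that difference was 0.852 for each.

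The outer dynein arm, which drives beat frequency, gave small values. Dnah9, the distal outer arm heavy chain with the X-box shown above, was at 9.37 and 8.0 CPM in lumbar TKO against 7.04 and 5.9 in lumbar WT, and 6.49 and 8.92 in thoracic TKO against 6.79 and 8.19 in thoracic WT. The lumbar TKO libraries were both higher and the thoracic ones overlapped, with a mean log2 difference of 0.23 (SE 0.169, adjusted p = 0.443). Dnah5 and Dnah11, the other outer arm heavy chains, had mean log2 differences of 0.16 (adjusted p = 0.693) and 0.17 (adjusted p = 0.678).

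The docking complex that seats outer arms on the doublets held a gene whose genotypes did not overlap in gene reads. Ccdc114 (chromosome 7, 45924072 to 45948963) was at 7.35 and 7.48 CPM in lumbar TKO, 5.2 and 4.94 in lumbar WT, 6.77 and 5.83 in thoracic TKO, then 4.49 and 4.53 in thoracic WT. Every TKO library was above every WT library, by a log2 difference of 0.51 (SE 0.146, adjusted p = 0.149), and the segments gave 0.55 and 0.48. Introns took 34% of its reads. In RPKM, which leaves introns out, the genotypes overlapped, with lumbar WT replicate 1 (0.690) above lumbar TKO replicate 1 (0.679). Its partner in the complex, Ccdc151, was at 2.17 and 2.67 CPM in lumbar TKO against 2.18 and 2.18 in lumbar WT, and 3.11 and 3.59 in thoracic TKO against 1.53 and 2.78 in thoracic WT. Thoracic TKO was above WT and the lumbar genotypes overlapped, with a mean log2 difference of 0.39 (SE 0.234, adjusted p = 0.365).

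Inner dynein arms shape the bend of the cilium, and 7 of their 9 genes were above 0. Dnah10 (chromosome 5, 124725085 to 124834308), a heavy chain of inner arm dynein f, was at 4.25 and 4.18 CPM in lumbar TKO against 3.07 and 2.39 in lumbar WT, and 4.27 and 5.16 in thoracic TKO against 2.35 and 3.24 in thoracic WT. All TKO libraries were above all WT libraries, with a log2 difference of 0.69 (SE 0.192, adjusted p = 0.143) that was similar in size in the lumbar (0.62) and thoracic cord (0.75). Dnah1, an inner arm heavy chain whose loss impairs sperm flagella, was at 5.95 and 6.26 CPM in lumbar TKO, 4.3 and 4.2 in lumbar WT, 4.77 and 8.64 in thoracic TKO, then 4.39 and 5.2 in thoracic WT. Only the thoracic libraries overlapped, and the mean log2 difference was 0.50 (SE 0.207, adjusted p = 0.241). Dnah12, a single-headed inner arm heavy chain, had 4.19 and 4.18 CPM in lumbar TKO against 2.79 and 2.23 in lumbar WT, and 3.77 and 3.14 in thoracic TKO against 4.24 and 2.99 in thoracic WT, high in both lumbar TKO libraries and mixed in the thoracic cord. Its mean log2 difference was 0.34 (SE 0.194, adjusted p = 0.353). Dnali1, the inner arm light intermediate chain, was at 2.33 and 2.78 CPM in lumbar TKO against 2.01 and 1.28 in lumbar WT, and 3.27 and 1.68 in thoracic TKO against 1.17 and 2.01 in thoracic WT. The thoracic genotypes overlapped and thoracic TKO replicate 1 was the highest of all 8 libraries, with a mean log2 difference of 0.64 (SE 0.299, adjusted p = 0.281).

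The inner arm genes of the Dnah7 family are near copies of each other on chromosome 1, and their reads are uncertain. Only 43.8% of the reads of Dnah7a and 69.3% of those of Dnah7b were uniquely placed, and introns took 71.6% of Dnah7a reads. Dnah7b was at 16.6 and 14.8 CPM in lumbar TKO against 9.94 and 9.78 in lumbar WT, and 11.5 and 15.8 in thoracic TKO against 12.4 and 13.3 in thoracic WT. The lumbar genotypes were apart and the thoracic ones overlapped, with a mean log2 difference of 0.38 (SE 0.146, adjusted p = 0.225). Dnah7a was at 7.09 and 7.36 CPM in lumbar TKO against 5.64 and 7.5 in lumbar WT, and 5.27 and 5.55 in thoracic TKO against 9.8 and 7.62 in thoracic WT. It was the 1 cilia gene lower in thoracic TKO at an unadjusted p under 0.05, with a log2 difference of −0.69 (SE 0.233, adjusted p = 0.211), and with unique reads alone the thoracic value was −0.47. Dnah3, the least abundant member, had 0.11 to 0.62 CPM, overlapping lumbar groups and a mean log2 difference of −0.02 (SE 0.481, adjusted p = 0.986), and it overlaps Lyrm1 on the opposite strand.

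The ruler proteins and the dynein regulatory complex set the spacing of arms and spokes along the doublet. Ccdc39 (chromosome 3, 33812362 to 33844310), which with Ccdc40 forms the ruler, was at 20.3 and 14.5 CPM in lumbar TKO against 11 and 13.8 in lumbar WT, and 14.3 and 14.8 in thoracic TKO against 18.9 and 16.8 in thoracic WT. TKO was above WT in the lumbar cord and below it in the thoracic cord, without overlap in either, and the mean log2 difference was 0.10 (SE 0.155, adjusted p = 0.729). Ccdc39 overlaps Ttc14 on the opposite strand, which has 1636 mean reads against 289 for Ccdc39, so its reads are uncertain. Drc1, the scaffold of the dynein regulatory complex, was at 6.78 and 5.22 CPM in lumbar TKO, 5.42 and 4.36 in lumbar WT, 4.99 and 5.94 in thoracic TKO, then 4.95 and 5.92 in thoracic WT. Genotypes overlapped in both segments, with a mean log2 difference of 0.15 (SE 0.175, adjusted p = 0.625). Ccdc40 had a mean log2 difference of 0.30 (adjusted p = 0.426).

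Radial spokes pass signals from the central pair to the dynein arms. Rsph9, a spoke head protein, was at 5.33 and 6.5 CPM in lumbar TKO, 6.15 and 5.74 in lumbar WT, 4.6 and 7.85 in thoracic TKO, then 4.95 and 6.39 in thoracic WT. Groups overlapped in both segments, the mean log2 difference was 0.06 (SE 0.205, adjusted p = 0.873), and Rsph9 overlaps Mrps18a on the opposite strand. The mean log2 difference was 0.30 for Rsph1 (adjusted p = 0.39) and for Rsph4a −0.12 (adjusted p = 0.666).

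The central pair held the largest difference of the set. Cfap54 (chromosome 10, 92775619 to 93081618), a protein of a central pair projection whose loss in mice causes hydrocephalus and slows airway cilia, was at 11.7 and 12.1 CPM in lumbar TKO against 4.97 and 5.32 in lumbar WT, and 9.26 and 13.1 in thoracic TKO against 6.43 and 7.62 in thoracic WT. The lowest TKO library, 9.26 CPM, was above the highest WT library, 7.62. Its log2 fold change was 0.94 (SE 0.161, 95% interval 0.57 to 1.30, adjusted p = 0.0573), just short of the threshold. The lumbar difference was 1.21 (SE 0.231, adjusted p = 0.33) and the thoracic one 0.67 (SE 0.226, adjusted p = 0.211). Exon reads alone gave 194 and 167 in lumbar TKO, 76 and 78 in lumbar WT, 140 and 174 in thoracic TKO, then 97 and 127 in thoracic WT.

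Cfap54 was also the 1 cilia gene whose call turned with the test. It passed with DESeq2 (adjusted p = 0.000642), without the filter on low counts (0.0117) and with uniquely placed reads (0.0451). It passed in 4 of 20 alternatives in all, and over the 20 the adjusted p ran from 0.000642 to 0.250. No seed match was found in its longest 3' UTR.

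The rest of the central pair lay on either side of 0. Spef2, a protein of a central pair projection that mouse cilia and sperm need, was at 7.2 and 4.0 CPM in lumbar TKO, 3.8 and 2.98 in lumbar WT, 5.21 and 4.71 in thoracic TKO, then 5.21 and 3.35 in thoracic WT. It was high in lumbar TKO replicate 1, the lumbar genotypes did not overlap and the thoracic ones did, with a mean log2 difference of 0.47 (SE 0.24, adjusted p = 0.308). Spag6l, the mouse gene for an armadillo-repeat protein of the central pair, was at 4.61 and 4.29 CPM in lumbar TKO against 4.58 and 4.79 in lumbar WT, and 5.05 and 3.53 in thoracic TKO against 5.41 and 5.25 in thoracic WT, with overlap in the lumbar cord and TKO lower in the thoracic cord. Its mean log2 difference was −0.19 (SE 0.172, adjusted p = 0.529). Hydin, a large central pair protein whose loss causes hydrocephalus in mice, had a mean log2 difference of 0.37 (adjusted p = 0.403). That of Spag16 was −0.34, at levels of 0.90 to 1.96 CPM, and that of Spag17 −0.28, at 0.57 to 2.14 CPM.

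Tektins and the other proteins inside the doublets stiffen the microtubules. Tekt4 was at 2.74 and 5.51 CPM in lumbar TKO, 3.63 and 2.45 in lumbar WT, 3.88 and 4.65 in thoracic TKO, then 2.81 and 1.6 in thoracic WT. Lumbar groups overlapped and the thoracic ones did not, with a mean log2 difference of 0.69 (SE 0.286, adjusted p = 0.241) and lumbar TKO replicate 2 the highest of all. Enkur, an inner doublet protein with an X-box, was at 4.92 and 3.83 CPM in lumbar TKO against 3.74 and 3.19 in lumbar WT, and 4.49 and 3.7 in thoracic TKO against 6.94 and 5.0 in thoracic WT, so TKO was above WT in the lumbar cord and below it in the thoracic cord. The mean log2 difference was −0.10 (SE 0.191, adjusted p = 0.77). Cfap52, also inside the doublet, was at 3.26 and 3.19 CPM in lumbar TKO, 1.79 and 2.5 in lumbar WT, 2.83 and 1.91 in thoracic TKO, then 2.71 and 3.3 in thoracic WT, with lumbar TKO above WT and thoracic libraries overlapping. Its mean log2 difference was 0.12 (SE 0.217, adjusted p = 0.757). Cfap126, which positions basal bodies in mouse multiciliated cells, was at 2.49 and 2.03 CPM in lumbar TKO against 2.46 and 2.29 in lumbar WT, and 2.66 and 2.36 in thoracic TKO against 3.01 and 2.73 in thoracic WT. Genotypes overlapped in the lumbar cord, thoracic TKO was slightly below WT, and the mean log2 difference was −0.13 (SE 0.188, adjusted p = 0.70). Tekt1 and Tekt2 had mean log2 differences of 0.17 and 0.24.

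Cfap43 and Cfap44 form the tether that, in ciliates and algae, holds the head of an inner dynein to its doublet. Cfap44 (chromosome 16, 44394796 to 44482428) was at 8.28 and 9.8 CPM in lumbar TKO against 5.87 and 5.16 in lumbar WT, and 7.04 and 9.25 in thoracic TKO against 9.55 and 10.1 in thoracic WT. It was high in lumbar TKO and, in the thoracic cord, higher in WT, and the mean log2 difference was 0.22 (SE 0.156, adjusted p = 0.433). Cfap43 was at 8.44 and 8.87 CPM in lumbar TKO against 5.92 and 5.74 in lumbar WT, and 7.76 and 6.56 in thoracic TKO against 8.22 and 7.16 in thoracic WT. The lumbar genotypes were well apart and the thoracic ones overlapped, with a mean log2 difference of 0.23 (SE 0.144, adjusted p = 0.378). Cfap43 overlaps Gsto1, with 1208 mean reads, on the opposite strand.

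The last group held assembly factors and cilia genes of other kinds. Ak7, an adenylate kinase of the axoneme that buffers ATP, was at 6.11 and 6.03 CPM in lumbar TKO against 4.02 and 2.55 in lumbar WT, and 7.04 and 3.87 in thoracic TKO against 3.93 and 4.27 in thoracic WT. Lumbar TKO was above lumbar WT in both libraries, thoracic TKO was spread from below to above WT, and the mean log2 difference was 0.65 (SE 0.233, adjusted p = 0.207). Mlf1 was at 3.88 and 2.9 CPM in lumbar TKO, 3.02 and 3.51 in lumbar WT, 5.05 and 2.24 in thoracic TKO, then 7.2 and 3.3 in thoracic WT, with thoracic WT replicate 1 the highest library and no separation of genotypes in either segment. Its mean log2 difference was −0.23 (SE 0.319, adjusted p = 0.687). Tmem212 was at 3.83 and 3.94 CPM in lumbar TKO against 2.91 and 2.29 in lumbar WT, and 4.33 and 3.03 in thoracic TKO against 2.91 and 4.02 in thoracic WT. The lumbar groups did not overlap, the thoracic ones did, and the mean log2 difference was 0.33 (SE 0.206, adjusted p = 0.377); on exon reads alone the lumbar value of 0.58 turned to −0.12. Introns took 50.8% of Tmem212 reads. Zmynd10, needed to assemble dynein arms in the cytoplasm, had a mean log2 difference of 0.19 (adjusted p = 0.778).

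**Figure D4:**
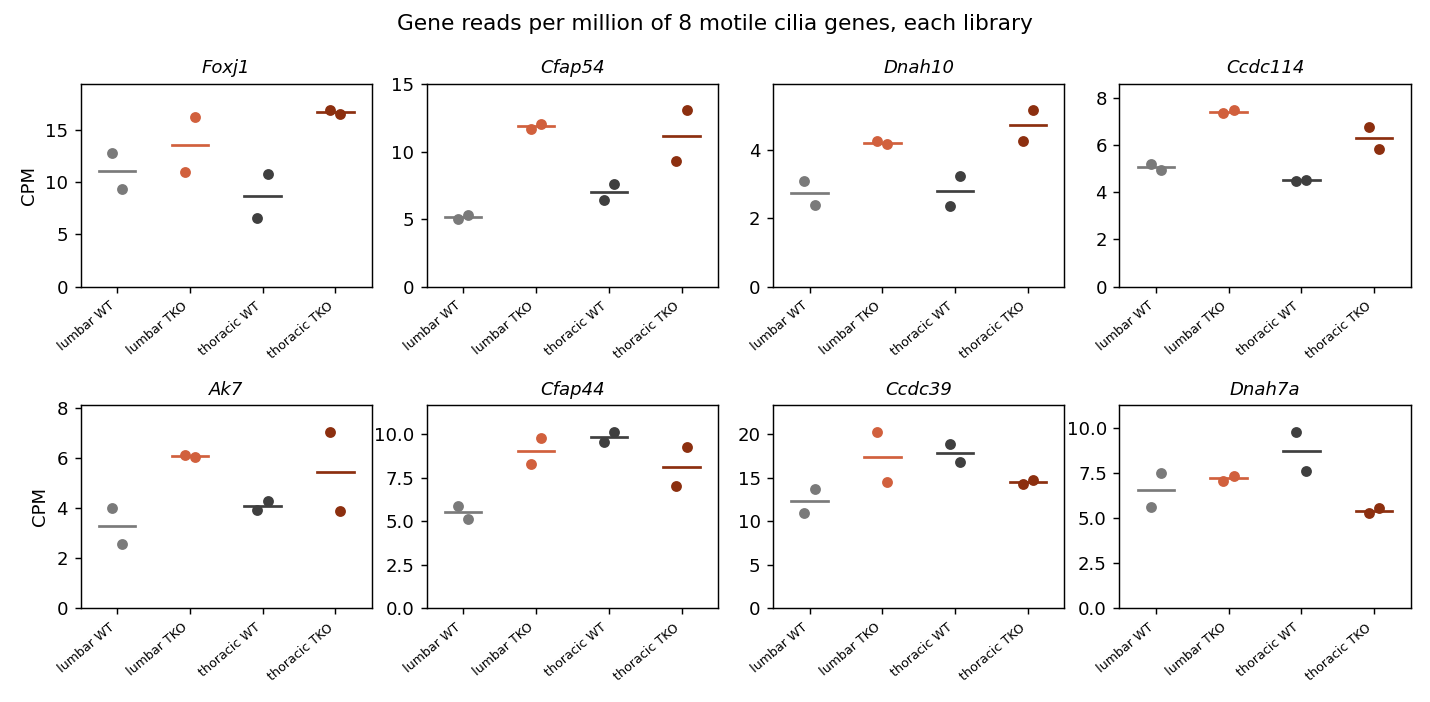
CPM of 8 cilia genes in each library (points) with the mean of the 2 libraries of a group (bars), for lumbar WT, lumbar TKO, thoracic WT and thoracic TKO, on linear axes from 0. In these gene reads, introns included, Cfap54, Dnah10 and Ccdc114 are higher in every TKO library than in every WT library. Cfap44 and Ccdc39 are lowest in lumbar WT.

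Genes with a promoter motif lay on both sides of 0. The mean log2 genotype differences of the 8 genes with an X-box ran from −0.34 (Spag16) to 0.69 (Tekt4), with 6 of 8 above 0. The 3 with a forkhead match were at 0.65 (Ak7), 0.23 (Cfap43) and −0.23 (Mlf1).

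Whether the genotype difference itself depended on the segment was tested as the lumbar minus the thoracic effect. It was above 0 for 31 of 41 genes with a median of 0.40, against 51.0% of all genes and a median of 0.01, and called 0 of 41 (0.00586% of all genes), as did DESeq2. An unadjusted p under 0.05 was reached by 5 cilia genes with a more positive lumbar effect (12.2%; 1.3% of all genes) and 0 with a more negative one (2.2% of all genes). The 5 were Cfap44 (0.99, SE 0.312), Ccdc39 (0.79, SE 0.309), Dnah7a (0.82, SE 0.328), Cfap43 (0.67, SE 0.289) and Enkur (0.88, SE 0.381). Of these, the reads of Dnah7a (43.8% uniquely placed) are uncertain. So are those of Ccdc39 and Cfap43, which overlap genes with more reads on the opposite strand. TKO was above WT in both lumbar libraries and below in both thoracic ones for 4 genes (9.76%; 1.89% of all genes), and the reverse held for 0 of 41 (1.71% of all genes). The adjusted p of the 5 genes was 0.852, so no cilia gene was shown to respond differently in the 2 segments. The median fell to 0.18 without lumbar TKO replicate 1, 0.25 without lumbar WT replicate 2 and 0.25 without thoracic WT replicate 2.

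Between segments of the cord, over both genotypes, no cilia gene passed the test. Thoracic minus lumbar was above 0 for 30 of 41 with a median log2 difference of 0.08, against 49.8% of all genes and a median of −0.00. It called 0 of 41 (0.082% of all genes). An unadjusted p under 0.05 was reached by 0 in either direction (1.02% of all genes higher, 1.39% lower), and DESeq2 also called 0. Cfap44 came closest, with a log2 difference of 0.34 (SE 0.156, adjusted p = 1.00), followed in size of p by Enkur (0.34), Dnah3 (0.65), Ccdc114 (−0.20), Mlf1 (0.39) and Cfap126 (0.21). The thoracic and lumbar libraries did not separate for any of the 41 (0.504% of all genes separated upward and 0.668% downward). The median was 0.04 without thoracic TKO replicate 1, 0.05 without lumbar WT replicate 2 and 0.04 without thoracic WT replicate 2.

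Other genes of the cilium and of the cells around it were read the same way. A separate list of 77 motile cilium genes, of which 74 were tested, had 47 above 0 and 0 called in the mean genotype difference, with a median log2 of 0.08. In the lumbar cord 54 of the 74 were above 0 with a median of 0.27, and in the thoracic cord 32 with a median of −0.05. Its summed level was 453 and 461 CPM in lumbar TKO, 426 and 418 in lumbar WT, 440 and 444 in thoracic TKO, then 438 and 433 in thoracic WT, lowest again in lumbar WT. Intraflagellar transport and BBSome genes, which carry cargo in all cilia, called 0 of 40 in the mean genotype difference with a median of −0.02. By segment, 26 of these 40 were above 0 in the lumbar cord (median 0.04) and 16 in the thoracic cord (median −0.17). Their lumbar minus thoracic effect was above 0 for 27 of 40 with a median of 0.19, against 51.0% of all genes and a median of 0.01. A more positive lumbar effect was thus not limited to the motile cilium lists. Cytoplasmic dynein, the motor outside the cilium, called 0 of 10 in the mean genotype difference with a median of −0.14.

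Ependymal surface and cytoplasm genes called 0 of 16, with a median log2 of 0.17 in the mean genotype difference, and in the lumbar cord 8 of 16 were above 0 with a median of 0.07. Their summed level was 420 and 511 CPM in lumbar TKO, 503 and 454 in lumbar WT, 481 and 544 in thoracic TKO, then 416 and 439 in thoracic WT. Lumbar groups overlapped in this sum, unlike in that of the cilia genes, while both thoracic TKO libraries were above both thoracic WT ones. In the thoracic cord 12 of the 16 were above 0 with a median of 0.15. The sum weighs abundant genes most, such as Tppp3 (15987 reads over 8 libraries), Vim (12558) and Cd24a (9885), against 1287 for Rarres2. As most of the list is also expressed by other cells, it is not a measure of ependymal cells alone. Choroid plexus genes summed to 15.9 and 17.6 CPM in lumbar TKO, 17.0 and 17.9 in lumbar WT, 15.5 and 16.4 in thoracic TKO, then 22.6 and 20.9 in thoracic WT, and called 0 of 7 tested with a median of −0.39.

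**Figure D5:**
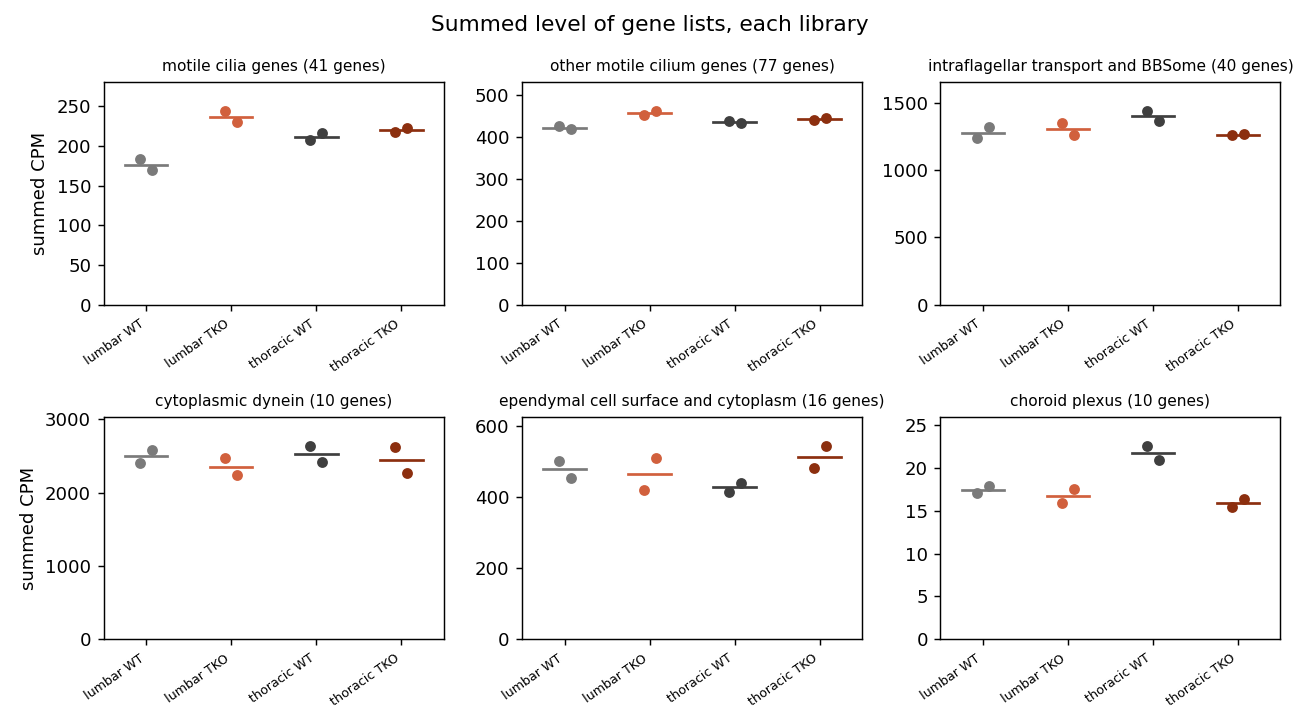
Summed CPM of 6 gene lists in each library (points) with group means (bars), on linear axes from 0. The 41 motile cilia genes and the 77 other motile cilium genes are lowest in both lumbar WT libraries. The ependymal surface list overlaps between the lumbar genotypes and is higher in both thoracic TKO libraries than in both thoracic WT libraries.

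Markers of some other cell types also differed between genotypes. The mean genotype difference called 2 of 12 microglia genes (Ctss and Csf1r) and 3 of 12 myelinating oligodendrocyte genes (Klk6, Opalin and Hapln2), all higher in TKO, with medians of 0.69 and 0.48. Astrocyte genes had a median of 0.39, with 10 of 12 above 0 and 0 called. Meningeal fibroblast genes had a median of −1.48, with 2 of 12 called lower (Lum and Dcn), and red blood cell genes a median of −1.68, with 1 of 7 called lower (Hba-a2). Cell cycle genes had a median of −0.88 with 0 of 12 called, and neuron genes a median of −0.13 with 0 of 14 called. Endothelial and mural genes had a median of −0.18 with 0 of 11 called, and mitochondrially encoded genes a median of −0.63 with 0 of 13 called. Fibroblast markers summed to 191 and 344 CPM in lumbar TKO against 792 and 543 in lumbar WT, and to 145 and 226 in thoracic TKO against 408 and 583 in thoracic WT. Red blood cell genes summed to 44.0 and 106 CPM in lumbar TKO against 365 and 158 in lumbar WT, and to 91.4 and 57.2 in thoracic TKO against 195 and 287 in thoracic WT. Both sums were lower in TKO without overlap in both segments, while the cilia genes were nearer each other in the thoracic cord. Their part in the level of the cilia genes was not tested.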

How the data were processed

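Polyadenylated RNA was sequenced from 8 libraries of mouse spinal cord, prepared with a stranded kit per the labels' protocols. The authors deposited whole-number read counts per gene (exon, intron and gene reads, total and unique) and RPKM, which divides exon reads by exon length, per the file headers. The submitters' processing notes name mm10. Aligner, counter and strand setting were not given in the sources used here, and total counts also hold multiply placed reads.

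Total gene reads were fitted with edgeR 4.0.16 (R 4.3.3; TMM, filterByExpr, robust quasi-likelihood test), 1 mean for each of 4 groups, over 17067 genes with Benjamini-Hochberg adjustment. The 5 contrasts were TKO minus WT per segment and averaged, the difference of these effects, and thoracic minus lumbar. Libraries of a group differed by more than sampling noise, with 15.6 to 70.8 as the chi-square per degree of freedom, and each counted once. A count of 0 allows 3 reads, or 0.143 to 0.185 per 1000000, for counting error only. Alternatives were other scalings, DESeq2 1.42.0, limma 3.58.1, other filters and read types, a replicate block and left-out libraries.

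The genes and lists were chosen with earlier results of these data known. Those with a value in every library are Foxj1, Rfx2, Rfx3, the 12 with the smallest p in the mean genotype difference, 6 each in the segment contrast and the difference of effects, and the highest RPKM of each role. The longest 3' UTR of each gene was read from GENCODE vM21 (GRCm38), and microRNAs and promoters from RefSeq (GRCm38.p6), with Python 3.11.15 and pandas 2.3.3.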

Additional observations from a re-analysis of the deposited data

Results flagged for a closer look

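For 4 cilia genes, both lumbar TKO libraries were above both lumbar WT libraries and both thoracic TKO libraries were below both thoracic WT libraries. That was 9.76% of the 41, against 1.89% of all genes tested. The lumbar minus thoracic genotype effect was 0.79 on the log2 scale for Ccdc39, a ruler protein, 0.61 for Rsph4a, of the radial spoke head, 0.88 for Enkur, an inner doublet protein, and 0.99 for Cfap44, of the dynein tether. Rsph4a was at 4.45 and 4.87 CPM in lumbar TKO against 4.02 and 4.2 in lumbar WT, and 4.49 and 3.93 in thoracic TKO against 5.21 and 6.13 in thoracic WT. In edgeR's test of that difference across all genes the adjusted p was 0.852 for each of the 4, and what lies behind the opposite directions was not tested.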

How the results depend on the processing

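In the mean genotype difference the number of cilia genes called went from 0 to 1 with DESeq2, with no filter, with unique gene reads and with the replicate block, and in the lumbar cord to 1 with DESeq2. In each of these cases the gene was Cfap54. The other counts stayed at 0, from 0 to 0 with each library left out, while genes called in the whole table, 61 as reported, ran from 6 (limma on RPKM) to 672 (DESeq2), with 310 without a filter, 222 with the block and 12 on exon reads. No call could reverse, since no cilia gene passed with the settings reported. Cfap54 kept a positive mean log2 value in all 20 alternatives, from 0.44 on log2(RPKM + 0.5) to 1.06. The median over the cilia genes ran from 0.15 to 0.29 with a library left out in the mean difference, 0.30 to 0.53 in the lumbar cord, −0.08 to 0.14 in the thoracic cord, 0.18 to 0.51 for the difference of effects and 0.04 to 0.12 between segments. On log2(RPKM + 0.5) these medians were 0.09, 0.17, −0.00, 0.11 and 0.02, and without both TKO replicate 2 libraries the mean was 0.26. Whether replicate numbers pair libraries is not stated: correlations of the replicate differences between groups, over all genes, ran from −0.33 to 0.44, with the 3 that involve lumbar WT below 0 and the other 3 at 0.31 to 0.44. With the replicate block Cfap54 had an adjusted p of 0.0309. Precision was limited: the median unadjusted 95% interval of a cilia gene reached 0.46 to either side in the mean difference, 0.65 within a segment and 0.92 for the difference of effects, and differences as large as 0.94 (Cfap54) missed the adjusted threshold.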

Other observations

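Dnai1 and Dnai2, the outer arm intermediate chains, are listed by RefSeq as synonyms of Dnaic1 and Dnaic2, which have rows in the table but fall outside the choice by name. They were looked up after their names were found to be missing. Dnaic1 was at 11.9 and 11.2 CPM in lumbar TKO, 11.3 and 9.52 in lumbar WT, 13.5 and 10.2 in thoracic TKO, then 8.47 and 8.34 in thoracic WT. The thoracic genotypes did not overlap, and the mean log2 difference was 0.32 (SE 0.149, adjusted p = 0.274). Dnaic2 was at 6.58 and 7.60 CPM in lumbar TKO, 6.26 and 6.11 in lumbar WT, 8.15 and 8.75 in thoracic TKO, then 6.43 and 5.10 in thoracic WT. Every TKO library was above every WT library, by a mean log2 difference of 0.37 (SE 0.152, adjusted p = 0.237).

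Regulators of the birth of multiciliated cells and of basal bodies, 13 of 15 of them tested, called 0 in the mean genotype difference, with 7 above 0 and a median log2 of 0.11. Their summed level, most of it from Ccp110 and Tfdp1, was 315 and 325 CPM in lumbar TKO, 283 and 275 in lumbar WT, 300 and 348 in thoracic TKO, then 300 and 276 in thoracic WT. Ccp110, the centriole cap protein and known target of the family, was at 133 and 145 CPM in lumbar TKO against 100.2 and 99.7 in lumbar WT, and 127 and 165 in thoracic TKO against 130.1 and 104 in thoracic WT. The lumbar genotypes did not overlap and the thoracic ones did, with a mean log2 difference of 0.40 (SE 0.127, adjusted p = 0.180). Foxn4, a forkhead factor of multiciliated cells, had 3 reads over all 8 libraries.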
